A study of Homo sapiens with 6 samples.

Results

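Lipins, acyltransferases, diacylglycerol acyltransferases, a lipid droplet coat protein and a triglyceride lipase were followed in H460 cells, a human non-small cell lung cancer line, with and without fluoxetine, a selective serotonin reuptake inhibitor. The set was chosen by gene symbol, with earlier results of these data known. It holds the 10 genes LPIN1, LPIN2, LPIN3, GPAM, AGPAT2, AGPAT3, DGAT1, DGAT2, PLIN2 and PNPLA2 out of 31762 genes in the count table, and each symbol stood on a single row. All 10 passed the filter on low counts that left 15646 tested genes. RNA was sequenced in 3 control libraries and 3 libraries of cells exposed to 20 µM fluoxetine for 24 h. Both groups are wild-type H460 cells by their labels, were kept in medium with 10% fetal bovine serum and were incubated for 24 h before the exposure. What the control cells received in place of the drug is not given in the sources used here. A single cell line was sequenced and no label says that the libraries of a group came from separate cultures, so the p-values measure the spread between these libraries, which may be technical.

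Triglyceride is built on glycerol 3-phosphate. The first fatty acid is added by the GPAT enzymes, of which GPAM encodes a mitochondrial one, and the second by the AGPAT enzymes, which yields phosphatidic acid. Lipins remove the phosphate to give diacylglycerol, and lipin 1 also acts in the nucleus as a coactivator of lipid genes and is controlled by mTORC1 phosphorylation. The DGAT enzymes add the last fatty acid, the triglyceride is kept in droplets coated by perilipins such as PLIN2, and PNPLA2 (ATGL) starts its breakdown. Phosphatidic acid and diacylglycerol are also the branch points to the membrane phospholipids.

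Depth lay between 16157507 and 27823667 counts per library, every fluoxetine library was shallower than every control library, and 3 counts, the limit that a count of 0 allows, were worth 0.108 to 0.186 CPM by the raw totals, which covers counting error only. CPM is the count scaled to a common library size, and the levels given are after TMM normalization of that size. With each library thinned at random to the smallest total, 2 of the 10 genes passed the test, as many as without thinning. Epithelial markers were abundant, with a summed level between 2690 and 4030 CPM over EPCAM, KRT8, KRT18, KRT19 and CDH1, although CDH1 itself had at most 3 counts in any library. Of 5 adipocyte markers ADIPOQ, LEP and CIDEC were absent from the table or had at most 3 counts in any library and the summed level was at most 0.313 CPM, and of the leukocyte, endothelial and alveolar type II markers PTPRC, CD3E, PECAM1, VWF, CDH5, SFTPC and SFTPB were so too. CD14 among the leukocyte markers and NKX2-1 among the alveolar type II markers were above 3 counts, and the summed level was 1.69 to 2.39 CPM for the leukocyte list and 0.116 to 0.454 CPM for the alveolar type II list over all libraries. The summed level of the 4 fibroblast markers lay between 8.54 and 10.1 CPM in control and between 12.1 and 13.5 CPM in fluoxetine libraries, with COL1A2 at no more than 3 counts, and its part in the results was not tested.

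LPIN1 rose 3.28-fold and LPIN2 rose 1.39-fold. Their p-values from the quasi-likelihood test of edgeR, adjusted by Benjamini-Hochberg over all tested genes, were 4.95e-06 and 0.0209. The other 8 genes did not pass an adjusted p of 0.05. In bulk RNA, a change in the RNA of each cell and a change in the mix of cells cannot be told apart. Among all tested genes, 7.76% were called higher and 5.32% lower by the same rule, and with a fold change of at least 2 as well 1.25% were called higher, as LPIN1 was. The number of the 10 genes called lower was 0 with edgeR, DESeq2 and limma-voom, and it was 0 at an unadjusted p under 0.05 as well, where 4 were higher. Of all tested genes, 15.8% were higher and 12.9% lower at that unadjusted threshold. All libraries of one group lay above all of the other in 4 genes, LPIN1, LPIN2, LPIN3 and DGAT2, each higher with fluoxetine, against 17.5% of all tested genes in that direction and 31.9% in either. The median log2 fold change of the 10 genes was 0.15, and 0.10 without LPIN1, beside 0.03 over all tested genes.

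**Figure D1:**
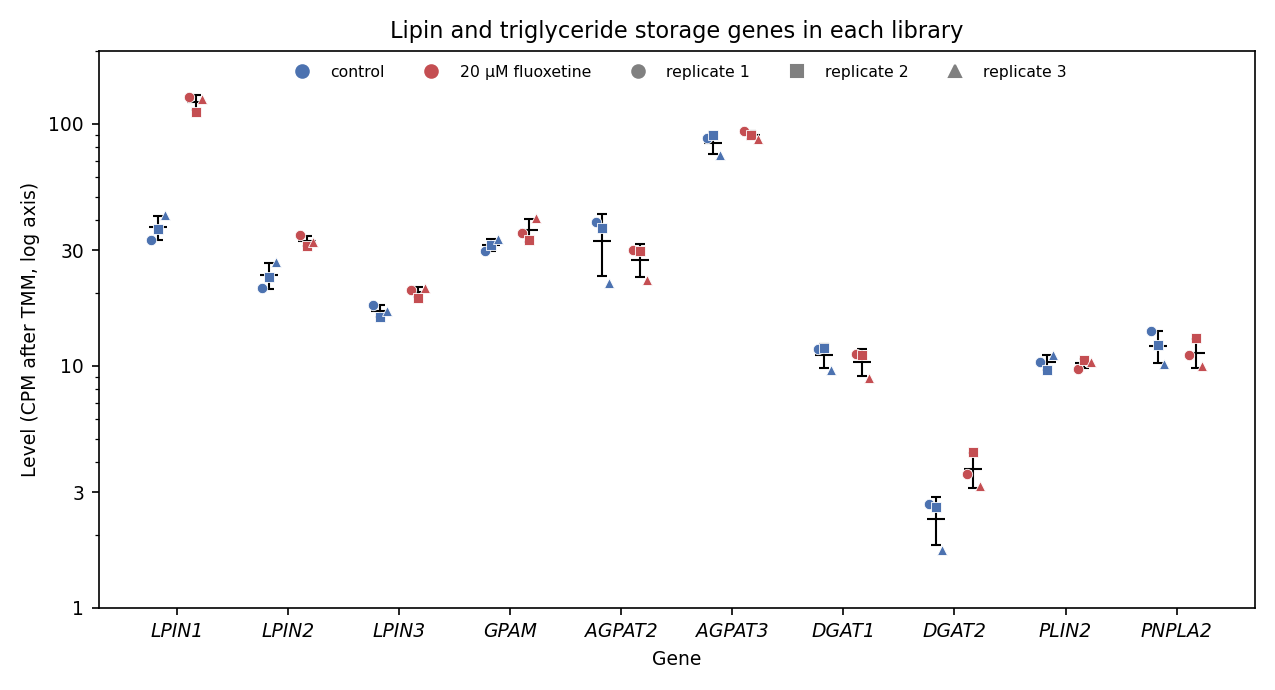
Level of each of the 10 genes in every library, in CPM after TMM normalization on a log axis, with control libraries in blue, fluoxetine libraries in red and the replicate number as the symbol. Black bars give the mean ± SD of 3 libraries, and LPIN1 moved from 33.2 to 41.8 CPM in control libraries up to 112 to 129 CPM with fluoxetine.

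LPIN1 (ENSG00000134324) lies on chromosome 2 from 11677595 to 11827409 on the plus strand in the coordinates of the count table, which are those of GRCh38. Control replicates 1, 2 and 3 held 733, 705 and 1161 LPIN1 reads, and fluoxetine replicates 1, 2 and 3 held 2122, 1884 and 2169. These counts correspond to 33.2, 36.7 and 41.8 CPM in the control libraries and to 129, 112 and 126 CPM in the fluoxetine libraries. The lowest fluoxetine library thus lay far above the highest control library, although it was sequenced less deeply. The group means were 37.3 ± 4.31 and 122 ± 9.04 CPM (SD, n = 3 each), and the log2 fold change was 1.71 with an edgeR standard error of 0.10 and a 95% interval of 1.49 to 1.94. Among the 15646 tested genes this was rank 48 by log2 fold change and rank 17 by p-value. Over 15 alternative settings it stayed between 1.60 and 1.78, with adjusted p-values of at most 0.000361. An antisense gene, AC012456.2, overlaps 115 bases of the LPIN1 exons and averaged 2.8 reads per library.

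LPIN2 (ENSG00000101577, chromosome 18, 2916994 to 3013315, minus strand) encodes the lipin whose loss causes Majeed syndrome, an inflammatory bone disease. Its level was 20.9, 23.3 and 26.8 CPM in control replicates 1, 2 and 3, and 34.6, 31.3 and 32.5 CPM in fluoxetine replicates 1, 2 and 3. The groups did not overlap, and the gap between them was narrow beside that of LPIN1. By edgeR the log2 fold change was 0.47 with a standard error of 0.11, which passed in 2 of 6 fits that each left out 1 library. Without control replicate 1, control replicate 2, fluoxetine replicate 1 or fluoxetine replicate 3 the adjusted p was 0.0955, 0.107, 0.14 or 0.0712.

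LPIN3 (ENSG00000132793, chromosome 20, 41340920 to 41360582, plus strand) encodes the remaining lipin. It had 17.8, 15.9 and 16.9 CPM in control replicates 1 to 3 and 20.6, 19.0 and 20.9 CPM in fluoxetine replicates 1 to 3. Every fluoxetine library was above every control library, yet the log2 fold change was 0.26 (95% interval 0.03 to 0.48) with an adjusted p of 0.126 from edgeR. The gene EMILIN3 overlaps 617 bases of its exons on the other strand and averaged 20.2 reads per library, and its own log2 fold change was -1.24 (edgeR adjusted p = 0.0886), which passed without a filter on low counts (0.012) and without control replicate 3 (0.015).

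Counts of the lipins were then compared within each library, which needs no normalization between libraries. The log2 ratio of LPIN1 to LPIN2 counts was 0.66 ± 0.01 (SD, n = 3) in control and 1.90 ± 0.06 (SD, n = 3) in fluoxetine libraries, a difference of 1.24 (standard error 0.04) or 2.36 times. The ratio of LPIN1 to LPIN3 differed by 1.46 (standard error 0.12), and neither ratio overlapped between the groups. For LPIN2 over LPIN3 the difference was 0.22 (standard error 0.13) and the groups overlapped. Each of the first 2 ratios had a two-sided exact permutation p of 0.1, the smallest that 3 libraries against 3 can give, and 0.20 after Benjamini-Hochberg adjustment over the 6 ratios compared. The ratio of LPIN2 to LPIN3 had an exact p of 0.2 and an adjusted value of 0.30.

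**Figure D2:**
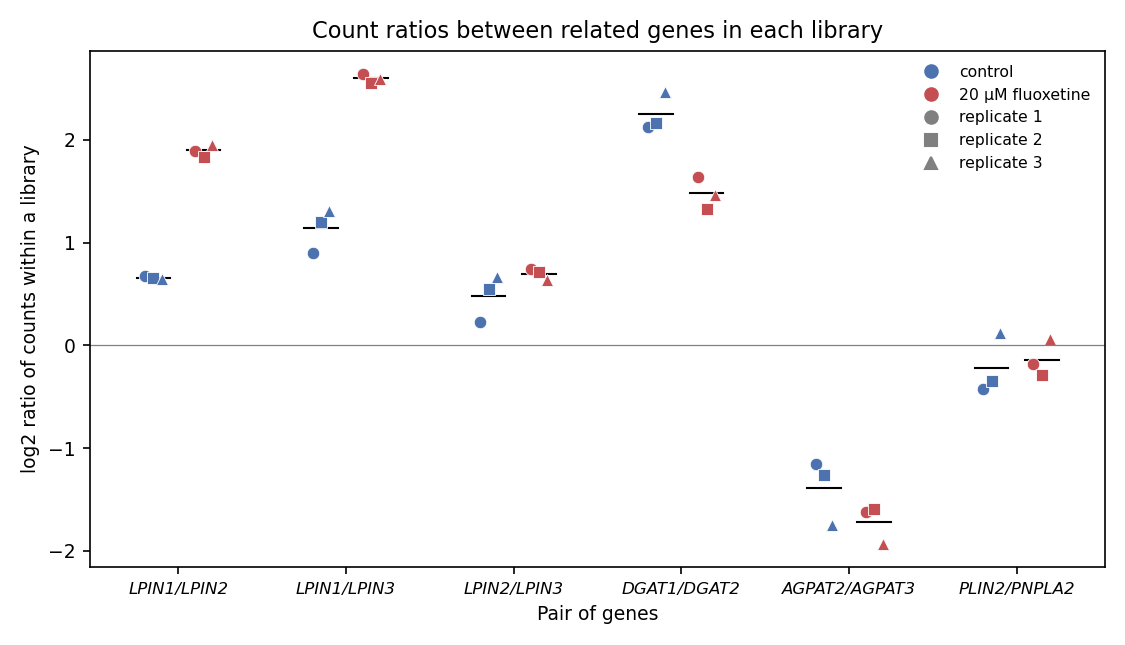
Log2 ratio of the counts of 2 related genes within each library for 6 pairs, with control libraries in blue, fluoxetine libraries in red and short lines at the means of 3 libraries. The ratios of LPIN1 to LPIN2 and to LPIN3 were higher and that of DGAT1 to DGAT2 lower (2.25 to 1.48) in every fluoxetine library than in every control library, while the other 3 pairs overlapped.

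Per length of merged exons, the 3 lipins were at nearly the same level in control cells, where LPIN1 took 30.4% ± 1.51, LPIN2 33.7% ± 2.03 and LPIN3 35.9% ± 3.54 (SD, n = 3) of their summed RPKM (CPM per kilobase of exon). With fluoxetine LPIN1 took 52.7% ± 0.781 (SD, n = 3), and the summed lipin level went from 10.3 ± 0.768 to 19.6 ± 1.21 RPKM (SD, n = 3). The shares depend on which length is used. Divided by the longest coding transcript instead, a choice made after seeing the data, LPIN1 took 46.0% ± 1.76 in control and 68.5% ± 0.656 in fluoxetine libraries (SD, n = 3).

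The promoter windows are shown as a description only, and the counts per gene do not tell which start was used. RefSeq (GRCh38.p14) gives 3 starts for LPIN1, 2 for LPIN2 and windows for 7 of the 10 genes, from 250 bases before to 50 after each start. For LPIN3, DGAT1 and DGAT2 no window was used here. The letters CACGTG (the E-box core, its own reverse complement), CACCCCA (the core of a sterol response element), TGATGNAA (a C/EBP-ATF element) and CCAAT (the NF-Y box) were searched on both strands, and capitals mark the matches. No match of these 4 was found in the 3 windows of LPIN1. Of all 35116 windows, 7.26% held CACGTG, 8.08% CACCCCA, 3.62% TGATGNAA and 34.6% CCAAT. In LPIN2 and in PLIN2, whose log2 fold change was -0.02, 1 window each held CACGTG, beginning at positions -210 and -69 from the start. CACCCCA was found in PNPLA2 and CCAAT in GPAM and in the first window of AGPAT3. For PNPLA2 and that AGPAT3 start, bases within the 50 after the start were not found in a GENCODE 29 transcript of the gene. They were found for GPAM, whose match begins after the start, at position 17. Bases within the 50 after the start were found in a GENCODE 29 transcript of LPIN1 for its second start only. They were not found for its first and most downstream starts, whose stretches are printed here. The first start also lies upstream of the gene start given above. The printed stretches run 5′ to 3′ on the strand of the gene and leave out bases that GENCODE 29 annotates as exon, except for the 30 bases around the PLIN2 match.
LPIN1, first start, chr2:11677294-11677543, plus strand: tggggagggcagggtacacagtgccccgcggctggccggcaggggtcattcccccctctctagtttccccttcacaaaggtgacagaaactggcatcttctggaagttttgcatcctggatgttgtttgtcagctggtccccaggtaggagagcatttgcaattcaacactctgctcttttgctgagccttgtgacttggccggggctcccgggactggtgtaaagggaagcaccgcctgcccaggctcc
LPIN1, most downstream start, chr2:11746382-11746587, plus strand: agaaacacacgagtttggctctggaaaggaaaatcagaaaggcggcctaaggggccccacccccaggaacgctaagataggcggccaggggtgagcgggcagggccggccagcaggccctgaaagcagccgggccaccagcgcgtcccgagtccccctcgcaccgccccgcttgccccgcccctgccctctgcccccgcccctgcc
LPIN2, second window, chr18:3013316-3013394, minus strand: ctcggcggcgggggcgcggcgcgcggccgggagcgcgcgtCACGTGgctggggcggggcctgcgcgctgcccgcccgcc
PLIN2, chr9:19127544-19127573, minus strand: gctgccgcgggtCACGTGctgcggaggctt
A match is a run of letters and not a measured binding site.

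The 3 acyltransferases of the set, which act before the lipins, did not pass the test. GPAM (ENSG00000119927, chromosome 10, 112149864 to 112215377, minus strand) had 29.9, 31.6 and 33.4 CPM in control replicates 1 to 3 and 35.5, 33.1 and 40.7 CPM in fluoxetine replicates 1 to 3. Fluoxetine replicate 2 fell just below the highest control library, and the log2 fold change was 0.20 (95% interval -0.02 to 0.43, edgeR adjusted p = 0.225).

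AGPAT2 (ENSG00000169692, chromosome 9, 136673143 to 136687423, minus strand), whose loss causes congenital lipodystrophy, had the widest spread of the 10 genes in control libraries. It had 39.1, 37.2 and 22.0 CPM in control replicates 1 to 3, a coefficient of variation of 28.6%, and 30.1, 29.7 and 22.6 CPM in fluoxetine replicates 1 to 3. Replicate 3 was the lowest of its group in both groups, as it also was for AGPAT3, DGAT1, DGAT2 and PNPLA2. For GPAM replicate 3 was the highest in both groups, and for the lipins and PLIN2 neither held in both. The log2 fold change of AGPAT2 was -0.25 (95% interval -0.69 to 0.19, edgeR adjusted p = 0.457). Without control replicate 3 the log2 fold change was -0.51 (edgeR adjusted p = 0.0113). That fit called 2006 of all tested genes lower, beside 833 with all libraries. Without both replicates 3, a choice made after seeing the data, the log2 fold change of AGPAT2 was -0.35 (edgeR adjusted p = 0.0266).

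AGPAT3 (ENSG00000160216, chromosome 21, 43865186 to 43986536, plus strand) had the most counts of the 10 genes in control cells, 1718 to 2052 per library. Its level was 87.2, 89.5 and 73.9 CPM in control replicates 1 to 3 and 92.8, 89.8 and 86.3 CPM in fluoxetine replicates 1 to 3. The groups overlapped, and the log2 fold change was 0.10 (95% interval -0.09 to 0.30, edgeR adjusted p = 0.503). The ratio of AGPAT2 to AGPAT3 within libraries overlapped between the groups too, with a difference of -0.33 (standard error 0.21, exact permutation p = 0.3, adjusted 0.36).

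Of the 2 enzymes that complete triglyceride, DGAT1 was the more abundant per length, at 2.67 ± 0.299 RPKM beside 0.296 ± 0.0667 RPKM for DGAT2 in control libraries (SD, n = 3). The gap was smaller with the longest coding transcript as the length, at 2.98 RPKM for DGAT1 and 0.953 RPKM for DGAT2 in control libraries. DGAT1 (ENSG00000185000, chromosome 8, 144314584 to 144326910, minus strand) had 11.7, 11.8 and 9.62 CPM in control replicates 1 to 3 and 11.2, 11.1 and 8.91 CPM in fluoxetine replicates 1 to 3. These values overlapped, and the log2 fold change was -0.08 (95% interval -0.40 to 0.23, edgeR adjusted p = 0.736). HSF1 overlaps 139 bases of its exons on the other strand, averaged 926.0 reads per library, and its log2 fold change was -0.07 (edgeR adjusted p = 0.812).

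DGAT2 (ENSG00000062282, chromosome 11, 75759512 to 75801535, plus strand) was the least abundant of the 10 per length. Its reads numbered 59, 50 and 48 in control replicates 1 to 3 and 59, 74 and 55 in fluoxetine replicates 1 to 3. After normalization this was 2.68, 2.60 and 1.73 CPM against 3.58, 4.40 and 3.20 CPM, so that the groups did not overlap. Its log2 fold change of 0.69 had the widest 95% interval of the set, 0.19 to 1.19, and an adjusted p of 0.0709 from edgeR. The adjusted p was 0.0421 without a filter on low counts, and it missed 0.05 in all 6 fits that left out 1 library. Within libraries the log2 ratio of DGAT1 to DGAT2 went from 2.25 ± 0.19 to 1.48 ± 0.16 (SD, n = 3), a difference of -0.77 (standard error 0.14) without overlap, at the smallest exact permutation p possible, 0.1 (adjusted 0.20).

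The droplet coat gene and the lipase stayed within the spread of their replicates. PLIN2 (ENSG00000147872, chromosome 9, 19108375 to 19149290, minus strand), a common marker of stored neutral lipid, had 10.4, 9.59 and 11.1 CPM in control replicates 1 to 3 and 9.71, 10.6 and 10.4 CPM in fluoxetine replicates 1 to 3. Its fold change was 0.988 with a 95% interval of 0.822 to 1.19 (edgeR adjusted p = 0.952). PNPLA2 (ENSG00000177666, chromosome 11, 818902 to 825573, plus strand) had 13.9, 12.2 and 10.2 CPM in control replicates 1 to 3 and 11.1, 13.0 and 9.96 CPM in fluoxetine replicates 1 to 3. The log2 fold change of PNPLA2 was -0.09 (95% interval -0.43 to 0.24, edgeR adjusted p = 0.725). The ratio of PLIN2 to PNPLA2 within libraries differed by 0.08 (standard error 0.20, exact permutation p = 0.6, adjusted 0.60).

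**Figure D3:**
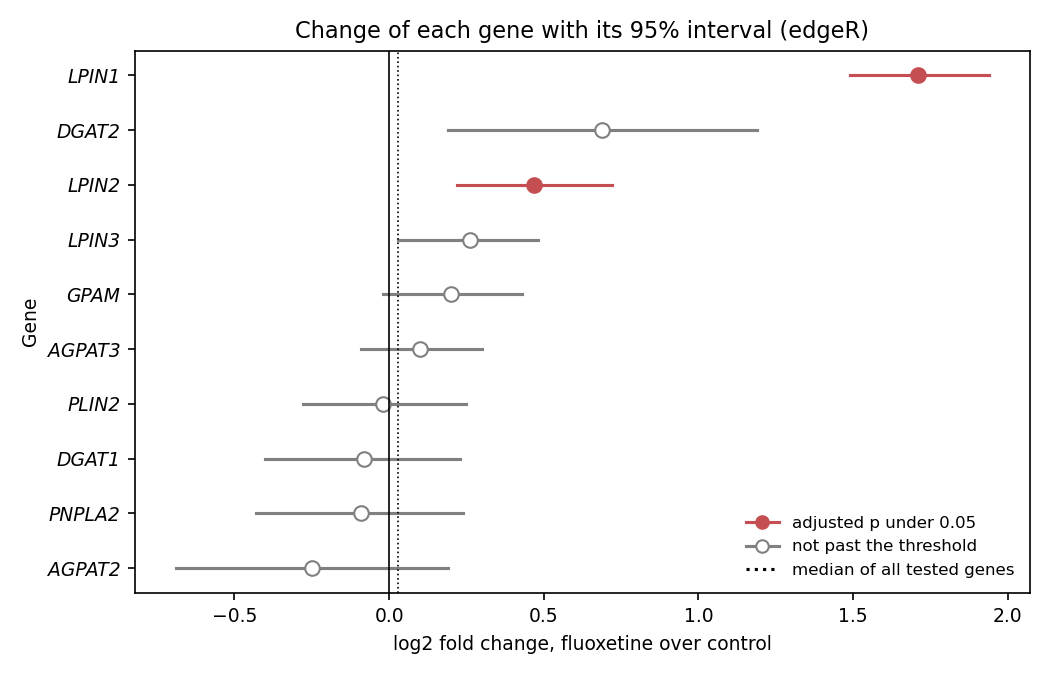
Log2 fold change of fluoxetine over control for each of the 10 genes with its 95% interval from edgeR, ordered by size, with filled red points at an adjusted p under 0.05 and a dotted line at the median of all tested genes, 0.03. LPIN1, at 1.71, stands apart from DGAT2 at 0.69 and LPIN2 at 0.47, and the intervals of 6 genes include 0.

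Per length of merged exons, the order in control cells was AGPAT2 (18.2 ± 5.21 RPKM), AGPAT3 (7.39 ± 0.744 RPKM), then LPIN3, LPIN2, GPAM, PNPLA2, LPIN1 and DGAT1 between 3.70 and 2.67 RPKM, PLIN2 (2.03 ± 0.145 RPKM) and DGAT2 (0.296 ± 0.0667 RPKM; SD, n = 3 for each). From LPIN3 down to DGAT1 the libraries of each gene overlapped those of the next. With fluoxetine LPIN1 stood at 10.3 ± 0.763 RPKM (SD, n = 3), between AGPAT2 at 15.3 and AGPAT3 at 7.93 RPKM. LPIN1 was thus rank 7 of 10 in control and rank 2 in fluoxetine libraries, or rank 3 and rank 1 with the longest coding transcript as the length. The order between genes therefore rests on the length chosen, while the fold change of a gene between groups was computed without a length. Whether both groups used the same transcripts of a gene was not tested.

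A profile distance, the root mean square difference of log2 CPM over the 6 libraries after centring on the control mean, was used to find the genes most like LPIN1. Among the nearest 5 outside the set were DCLK1 at 0.062, SCD at 0.103, AHNAK2 at 0.110 and NOV at 0.111. SCD encodes the stearoyl-CoA desaturase, DCLK1 a microtubule-associated kinase and NOV a secreted CCN protein. The log2 fold changes of these genes lay between 1.72 and 1.84, beside 1.71 for LPIN1. That closeness follows from the distance, which grows with any difference in the change from control. The abundance of SCD was 755 ± 54.7 CPM in control and 2703 ± 215 CPM in fluoxetine libraries (SD, n = 3). The same 5 genes were found with library size only and with a prior count of 0.5, both from the same counts.

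Other genes of the same pathway came from 4 lists written from general knowledge, with earlier results of these data known. A share above that of all genes can therefore not be read as an excess. The lists hold 64 genes, of which 49 were tested. Of these, 11 rose and 1 fell at an adjusted p under 0.05, with a median log2 fold change of 0.18, beside 7.76% and 5.32% of all tested genes. Fold changes of at least 2 were reached by 2, PNPLA3 and PCYT2.

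One list held 10 tested genes for the other acyltransferases and phosphatidate phosphatases and the phosphatase complex that acts on lipins. Of these, 3 rose, beside 7.76% of all tested genes, and the median of the list was 0.12. GPAT3, which encodes an endoplasmic reticulum GPAT, rose from 164 ± 4.63 to 205 ± 2.04 CPM (SD, n = 3), or 0.32 as log2 fold change (edgeR adjusted p = 0.0114). AGPAT4 rose by 0.84 (adjusted p = 0.0142) and PLPP3, a membrane lipid phosphatase, by 0.69 (adjusted p = 0.0451) on the log2 scale with edgeR. In 6 fits that left out 1 library the call held in 3 for GPAT3, 4 for AGPAT4 and 2 for PLPP3, and that of PLPP3 was also lost with limma-voom (adjusted p = 0.0591) and at equal depth (0.0555). The list was 0 for calls in the lower direction with edgeR, DESeq2 and limma-voom. At an unadjusted p under 0.05, 1 gene was lower, beside 12.9% of all tested genes.

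In the phospholipid branches, 4 of 18 tested genes rose, beside 7.76% of all tested genes, and the median of the list was 0.16. PCYT2, the rate-limiting enzyme of phosphatidylethanolamine synthesis from ethanolamine, led the 4. It went from 27.5 ± 2.38 to 69.6 ± 6.18 CPM (SD, n = 3), or 1.34 as log2 fold change (standard error 0.10, edgeR adjusted p = 2.33e-05), and it passed in each of 14 alternative settings. SELENOI, which completes that branch with diacylglycerol, had a log2 fold change of 0.49 (edgeR adjusted p = 0.0204). PCYT1B, of the phosphatidylcholine branch, rose by 0.83 (adjusted p = 0.00363), and CDS1, which turns phosphatidic acid into CDP-diacylglycerol, by 0.68 (adjusted p = 0.0470) with edgeR. The call of CDS1 held in 1 of 6 fits that left out 1 library and that of SELENOI in 2 of 6. With all libraries CDS1 missed the threshold with DESeq2 (adjusted p = 0.0769), limma-voom (0.0537) and RLE normalization in edgeR (0.0521).

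Droplet coat and assembly genes gave 1 call among 8 tested genes, with a median of 0.11. Of all tested genes, 13.1% were called in either direction. AUP1, a droplet protein that recruits ubiquitin conjugation, fell from 208 ± 16.4 to 164 ± 16.5 CPM (SD, n = 3), or -0.34 as log2 fold change (edgeR adjusted p = 0.0334) that held in 2 of 6 fits leaving out 1 library. The number called higher was 0 with edgeR, DESeq2 and limma-voom. At an unadjusted p under 0.05, 1 gene was higher, beside 15.8% of all tested genes. The remaining 8 of the 16 listed genes, among them PLIN1, PLIN4 and PLIN5, did not pass the filter on low counts or had no row in the table.

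Lipases and their cofactors had 4 genes that rose among 13 tested, beside 7.76% of all tested genes, and a median of 0.28. PNPLA3, a droplet protein related to PNPLA2, had few reads in control libraries and a mean that went from 1.396 ± 0.237 to 5.95 ± 0.925 CPM (SD, n = 3), 4.28-fold in the fit (edgeR adjusted p = 0.000164). Its counts were 27 to 36 in control and 82 to 111 in fluoxetine libraries. PNPLA8, a phospholipase of the same family, rose by 0.99 (adjusted p = 0.000847), LIPA, the acid lipase of lysosomes, by 0.69 (adjusted p = 0.000290) and ABHD6, a monoacylglycerol hydrolase, by 0.62 (adjusted p = 0.0126) with edgeR. The call of ABHD6 held in 2 of 6 fits that left out 1 library. For ABHD5, the activator of PNPLA2, the log2 fold change was 0.03 (edgeR adjusted p = 0.851). ABHD5 was picked for naming after its value was seen.

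**Figure D4:**
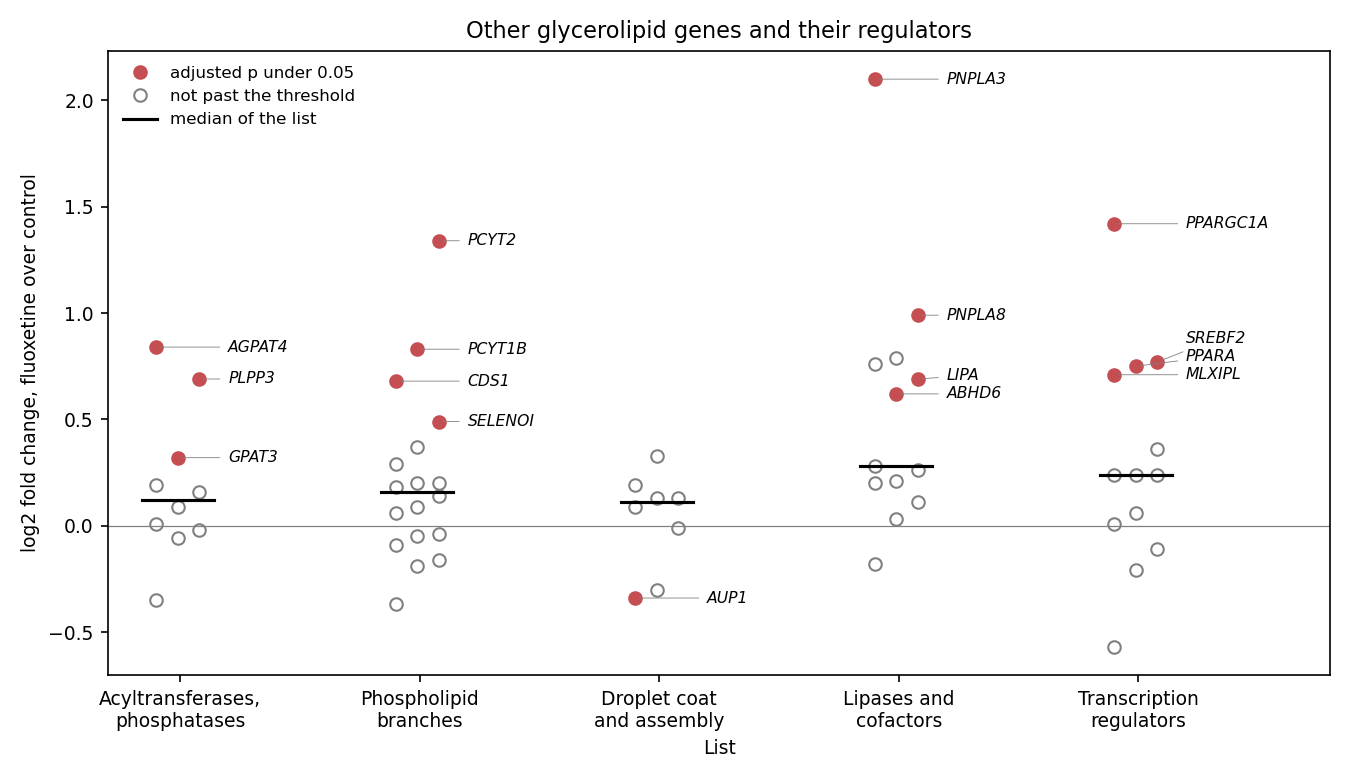
Log2 fold change of fluoxetine over control for the tested genes of 5 lists, with filled red points and names at an adjusted p under 0.05 from edgeR and black lines at the list medians. PNPLA3 at 4.28-fold is the highest, followed by PPARGC1A at 1.42 and PCYT2 at 1.34 on the log2 scale, and AUP1 at -0.34 is the one called lower.

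Of 13 transcription regulators of these genes, 4 rose, beside 7.76% of all tested genes, with a median of 0.24. This list too was chosen with earlier results of these data known. PPARGC1A, the PGC-1alpha coactivator with which lipin 1 is known to act, rose from 8.06 ± 0.705 to 21.7 ± 0.746 CPM (SD, n = 3), or 1.42 as log2 fold change (edgeR adjusted p = 3.72e-05). SREBF2, the sterol-regulated factor, rose by 0.77 (adjusted p = 0.000339), PPARA, a fatty acid receptor, by 0.75 (adjusted p = 0.0212) and MLXIPL, the carbohydrate-responsive factor, by 0.71 (adjusted p = 0.0310) with edgeR. PPARA held in 2 and MLXIPL in 1 of 6 fits that left out 1 library, and MLXIPL missed the threshold with DESeq2 (adjusted p = 0.0528). SREBF1, the relative of SREBF2 that favours fatty acid genes, had overlapping groups and a log2 fold change of 0.36 (edgeR adjusted p = 0.159), and it passed without a filter on low counts (adjusted p = 0.00832). PPARD, PPARG, PPARGC1B, MLX, NR1H2, NR1H3, CEBPA and CEBPB lay between -0.57 and 0.24 and did not pass the test, although MLX did without control replicate 3 (-0.24, edgeR adjusted p = 0.0387). The list had 0 genes called lower with edgeR, DESeq2 and limma-voom. At an unadjusted p under 0.05, 1 was lower, beside 12.9% of all tested genes.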

How the data were processed

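RNA of 3 control and 3 fluoxetine-treated H460 libraries was sequenced as paired-end reads. The authors deposited a table of raw read counts per gene and library, without normalization or pooling. The submitters' processing notes name fastp 0.20.0, HISAT2 2.1.0, HTSeq 0.10.0 and DESeq2 1.18.1, and whether counting used strand is not given in the sources used here. The table also holds the authors' own fold changes and p-values, which were not used. Of its genes, 31635 are in GENCODE 29 and 96.81% of these have the same start and end there, from which exon lengths and overlaps were taken.

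Groups came from the treatment labels. The counts went into edgeR 4.0.16 under R 4.3.3 (glmQLFit and glmQLFTest, TMM, filterByExpr, no covariate, Benjamini-Hochberg over all tested genes, called at an adjusted p under 0.05), and standard errors are the log2 fold change over the root of F. Ratios of counts used a pseudocount of 0.5. Replicates of a group differed by more than sampling noise (chi-square per degree of freedom 3.72 to 24.2). Alternatives were DESeq2 1.42.0, limma-voom (limma 3.58.1), RLE, library size only, no filter, at least 10 counts in every library, equal depth, a replicate block and leaving out each library. Protein sequences were not analysed here. The scripts were tested on simulated counts. The genes named are the 10 of the set, up to 5 called genes per list by smallest p, all tested regulators, overlapping neighbours and the 5 nearest profiles, of which 1 is not reported here. The set and the lists were chosen with earlier results of these data known.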

Additional observations from a re-analysis of the deposited data

How the results depend on the processing

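With DESeq2, limma-voom, RLE, library size only, equal depth or at least 10 counts in every library, 2 of the 10 genes were called higher and 0 lower. Leaving out each library in turn gave 1 to 2 called higher and 0 to 1 lower, 409 to 1627 and 163 to 2006 of all tested genes, and 5 to 13 and 0 to 2 of the other glycerolipid genes. All genes fell to 409 and 163 without fluoxetine replicate 1, and 2006 were lower without control replicate 3. Without both replicates 3, 1 of the 10 genes (AGPAT2) was called lower. With a fold change of at least 2 as well, 1 of the 10 genes was called higher, 195 and 23 of all genes, and 2 and 0 of the other glycerolipid genes. Without a filter on low counts 1516 genes were called lower. An added minimum can only lower a count, and the cause of the other differences was not tested.

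The replicate number as a block gave 2231 genes higher and 1787 lower, with 3 of the 10 genes higher (DGAT2 added, adjusted p = 0.0116) and 2 other glycerolipid genes lower. No label states that the numbers are a pairing. Deviations from the group means correlated by 0.030, 0.116 and 0.392 over genes for numbers 1, 2 and 3, the last being the highest of all pairs. Control replicate 1 correlated best with fluoxetine replicate 2 (0.320). Deviations within a group cancel out, so these correlations depend on one another and cannot settle whether a pairing exists. With the block SREBF1 was called higher (0.37, adjusted p = 0.000227) and EMILIN3 lower (-1.24, adjusted p = 0.00879).

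All alternatives were counted for the single genes named by rule, which include the nearest profile not reported here and leave out ABHD5. Of these values, 523 kept their direction and side of the threshold, 45 lost the call, 10 gained one and 17 turned sign. Signs turned around 0 for genes that were not called. Leaving out each library gave -0.01 (without control replicate 3) to 0.11 for AGPAT3, -0.11 to 0.0017 for PLIN2, -0.05 to 0.15 for PPARD, -0.09 to 0.06 for PPARG, -0.34 to 0.02 for NR1H2 and -0.23 to 0.05 for HSF1. PLIN2 was at 0.0042 with library size only and 0.02 without both replicates 3. PPARG was at -0.02 with DESeq2 and RLE, -0.03 without a filter, and -0.01 with equal depth. The PLIN2 to PNPLA2 ratio ran from -0.02 to 0.25 when a library was left out, and it was -0.02 without control replicate 1 or fluoxetine replicate 3. The other ratios kept their sign: 1.21 to 1.27 for LPIN1 to LPIN2, 1.34 to 1.55 for LPIN1 to LPIN3, 0.09 to 0.31 for LPIN2 to LPIN3, -0.86 to -0.67 for DGAT1 to DGAT2 and -0.51 to -0.21 for AGPAT2 to AGPAT3. With the longest coding transcript as length LPIN1 ranked 3 in control and 1 in fluoxetine libraries. Of the 10 genes DGAT2 had the fewest counts, 48 to 74 per library.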
